A study of Sus scrofa with 18 samples.

Results

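Heat shock chaperones and co-chaperones were described here in backfat of Ningxiang pigs, over 6 stages of growth. The 10 genes (HSPH1, DNAJB1, BAG3, HSPA8, HSP90AA1, HSPB1, HSPD1, HSPE1, HSPA4 and CRYAB) were chosen by name, with the fold changes of heat shock genes between 60 and 120 days in these libraries already known. Each was taken as the row of the deposited table that carries its symbol. A row was found for 9 of the 10, 1 row each, out of 27883 loci, and HSP90AA1 was not analysed here. All 9 passed the filter on low values, so the account below covers every gene with a row.

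The tissue came from the shoulder of castrated male Ningxiang pigs that were slaughtered at 60, 120, 180, 240, 300 or 360 days of age. Each stage had 3 pigs and each pig 1 library, which makes 18 libraries. The 3 pigs of a stage were full sibs and the litters of different stages shared a parent, so age, litter and day of slaughter cannot be told apart. No pig was treated, and the groups differ by age alone in the labels. Total counts per library were between 74077094 and 84236689. Fewer cells of a type and less RNA per cell cannot be told apart in such bulk tissue.

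Some libraries stood apart before any chaperone was considered. The 10 adipocyte markers examined summed to between 596 and 1315 FPKM (fragments per kilobase of transcript, scaled to the depth of the library) over the 18 libraries, and the adipokine gene ADIPOQ was at 100.1 FPKM or more in each. The Y-linked genes EIF1AY, KDM5D and ZFY summed to at most 0.613 FPKM in 7 libraries and to between 6.65 and 13.8 FPKM in the other 11, although every pig was described as a castrated male. Those 7 libraries include all 3 of 180 days, 60 days replicates 1 and 3, 120 days replicate 2 and 300 days replicate 2. The 11 matched skeletal muscle markers summed to 551 FPKM in 180 days replicate 1, to 279 FPKM in 120 days replicate 2 and to 53.4 FPKM in 240 days replicate 1, and to between 1.79 and 20.5 FPKM in the other 15 libraries. The 3 matched structural RNAs summed to 150298 FPKM in 360 days replicate 3 and to at most 84271 FPKM in every other library. The paper also lists the highest GC content and the lowest share of mapped reads for 360 days replicate 3.

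Molecular chaperones bind unfolded proteins and help them fold, or keep them soluble until they can be refolded or degraded. The HSP70 proteins do this in cycles of ATP hydrolysis. J-domain proteins such as DNAJB1 start each cycle, and nucleotide exchange factors such as HSPH1, HSPA4 and BAG3 end it. Small heat shock proteins such as HSPB1 and CRYAB hold unfolded clients without ATP, and HSPD1 with its lid HSPE1 forms the folding chamber of mitochondria. When unfolded protein accumulates, the transcription factor HSF1 raises the inducible members of the family within a short time.

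By their levels the 9 genes fell into 4 descriptive sets. HSPH1, DNAJB1, BAG3 and HSPA8 had their highest mean at 120 days, the small heat shock genes HSPB1 and CRYAB at 240 days, and the mitochondrial pair HSPD1 and HSPE1 their lowest mean at 360 days. HSPA4 varied least, with a highest library 1.55 times the lowest, against 27.1 times for HSPH1 and 20.5 times for DNAJB1. The 9 genes together summed to 171 ± 21.3 FPKM at 60 days (SD, n = 3) and to 413 ± 113 FPKM at 240 days (SD, n = 3), where most of the sum was HSPB1 and CRYAB.

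**Figure D1:**
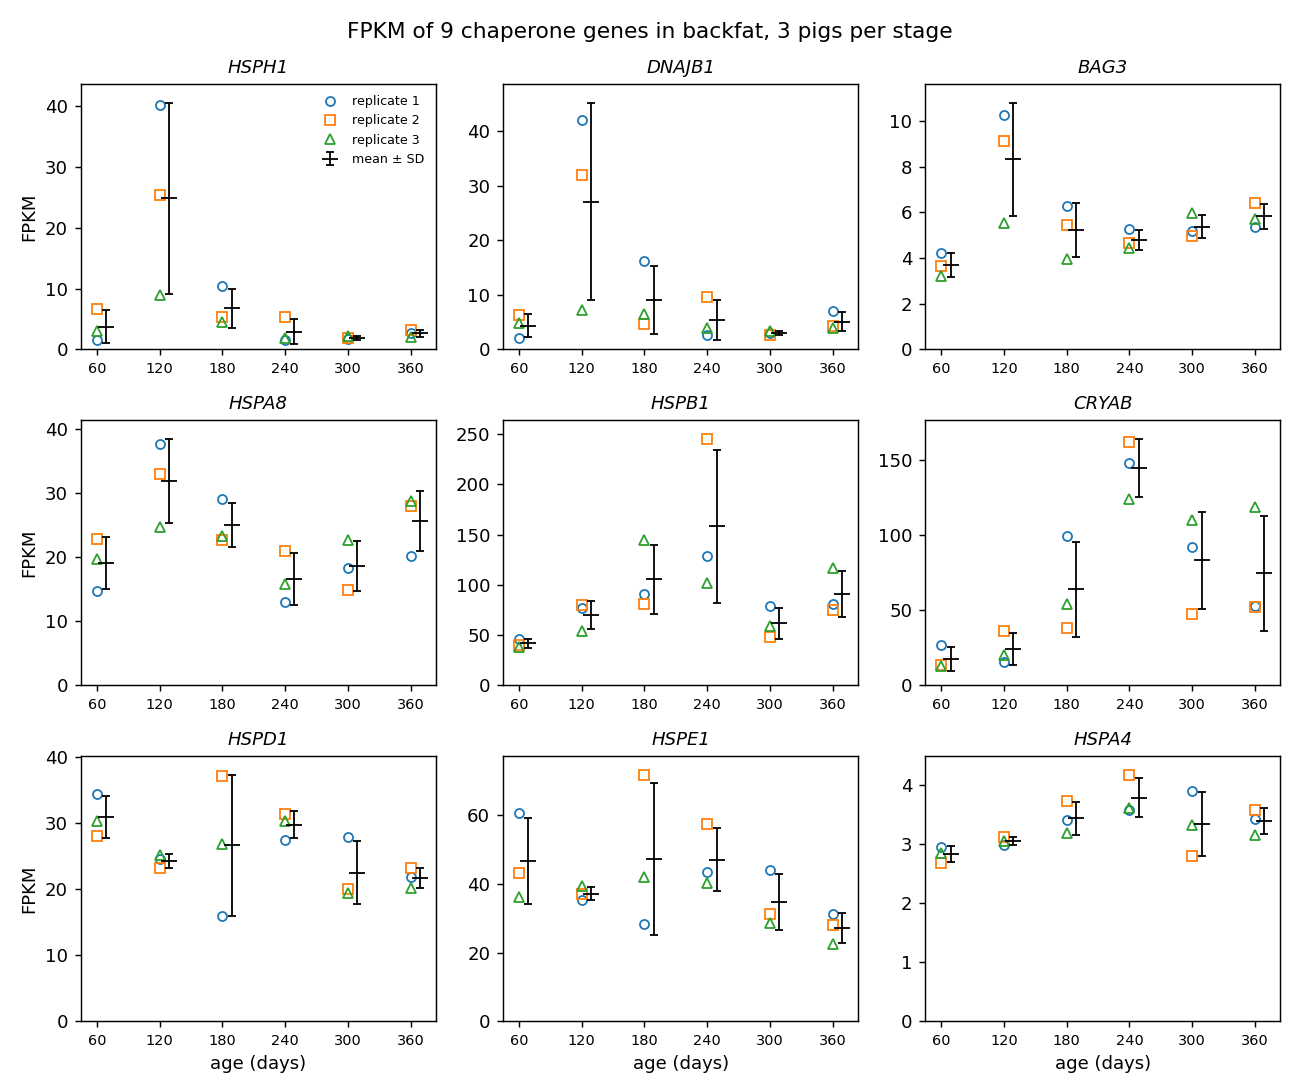
FPKM (vertical axis, linear, from 0) against age in days for the 9 chaperone genes, with 1 symbol per library by replicate number and the mean ± SD of 3 libraries drawn beside them. HSPH1 reached 40.1 FPKM in 1 library of 120 days, CRYAB was at 124 FPKM or more in all 3 libraries of 240 days, and HSPA4 stayed between 2.68 and 4.16 FPKM.

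HSPH1 encodes a large HSP110-type protein that releases nucleotide from HSP70. It was read from locus MSTRG.3050 on chromosome 11 (7726395 to 7761332, minus strand, Sscrofa11.1), with at least 4528 counts in every library. Its level was 1.48, 6.71 and 3.09 FPKM in replicates 1, 2 and 3 of 60 days. The litter of 120 days had 40.1, 25.4 and 8.87 FPKM. All 3 libraries of 120 days were above all 3 of 60 days, but they differed widely among themselves, with an SD of 15.6 FPKM around a mean of 24.8 FPKM. At 180 days the values were 10.4, 5.34 and 4.49 FPKM. From 240 days on they were between 1.60 and 5.25 FPKM, and the 3 libraries of 300 days lay close together, between 1.64 and 2.25 FPKM.

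DNAJB1, the main inducible J-domain partner of HSP70 in the cytosol, followed nearly the same libraries. Its locus MSTRG.11690 lies on chromosome 2 (64761206 to 64776823, plus strand). The level was 2.06, 6.24 and 4.75 FPKM at 60 days and 42.2, 32.0 and 7.13 FPKM at 120 days. The libraries of 180 days had 16.2, 4.72 and 6.41 FPKM, so that replicate 1 again stood above its littermates. At 240 days replicate 2 was highest, with 9.60 FPKM against 2.63 and 3.93. The stages of 300 and 360 days were between 2.67 and 7.06 FPKM. In order of mean level the stages were 120, 180, 240, 360, 60 and 300 days, and each stage overlapped the next in that order.

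BAG3 couples HSP70 to small heat shock proteins and to the clearance of damaged proteins by autophagy. The locus MSTRG.7886 on chromosome 14 (129466905 to 129537671, plus strand) overlaps the RefSeq genes TIAL1 and LOC110256777 beside BAG3 and 1 locus on the other strand, so its value cannot be given to BAG3 alone, and whether the counts used strand is not given in the sources used here. It stood at 4.24, 3.67 and 3.21 FPKM at 60 days and at 10.3, 9.14 and 5.55 FPKM at 120 days. Replicate 3 of 120 days was thus close to the later stages, where the 12 libraries were between 3.97 and 6.40 FPKM. In the order of stage means 60 days came last, and it did not overlap 240 days, the next above it.

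HSPA8 is the constitutive HSP70 of the cytosol, present without stress. Its locus MSTRG.22311 on chromosome 9 (49978078 to 49989987, minus strand) also carries small nucleolar RNAs and overlaps RefSeq CLMP. The level was 14.8, 22.9 and 19.7 FPKM at 60 days and 37.7, 33.1 and 24.8 FPKM at 120 days. The libraries of 180 days had 29.1, 22.7 and 23.4 FPKM, and the lowest library of all was 240 days replicate 1 with 13.01 FPKM. At 360 days the values were 20.2, 28.0 and 28.8 FPKM. HSPA8 therefore ranged over 2.90 times among the 18 libraries, and neighbouring stages in the order of means overlapped throughout.

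The same 2 libraries, replicates 1 and 2 of 120 days, were the highest and second highest of the 18 for HSPH1, DNAJB1, BAG3 and HSPA8. The third highest was 180 days replicate 1 for HSPH1, DNAJB1 and HSPA8, and 360 days replicate 2 for BAG3. Over the 18 libraries, log2(FPKM + 0.1) of HSPH1 and DNAJB1 had a Pearson r of 0.95 and a Spearman rho of 0.91. The r was 0.87 over the 16 libraries left without the 2 farthest in HSPH1, and 0.92 for deviations from the stage means. HSPH1 and HSPA8 had an r of 0.80 (rho 0.83) and an r of 0.79 within stages. HSPH1 and BAG3 had an r of 0.62 (rho 0.43), which was 0.05 without the 2 farthest libraries and so rested on them. These correlations are descriptions over 18 libraries whose pigs are full sibs within a stage, and the values of a library share its depth and composition.

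**Figure D2:**
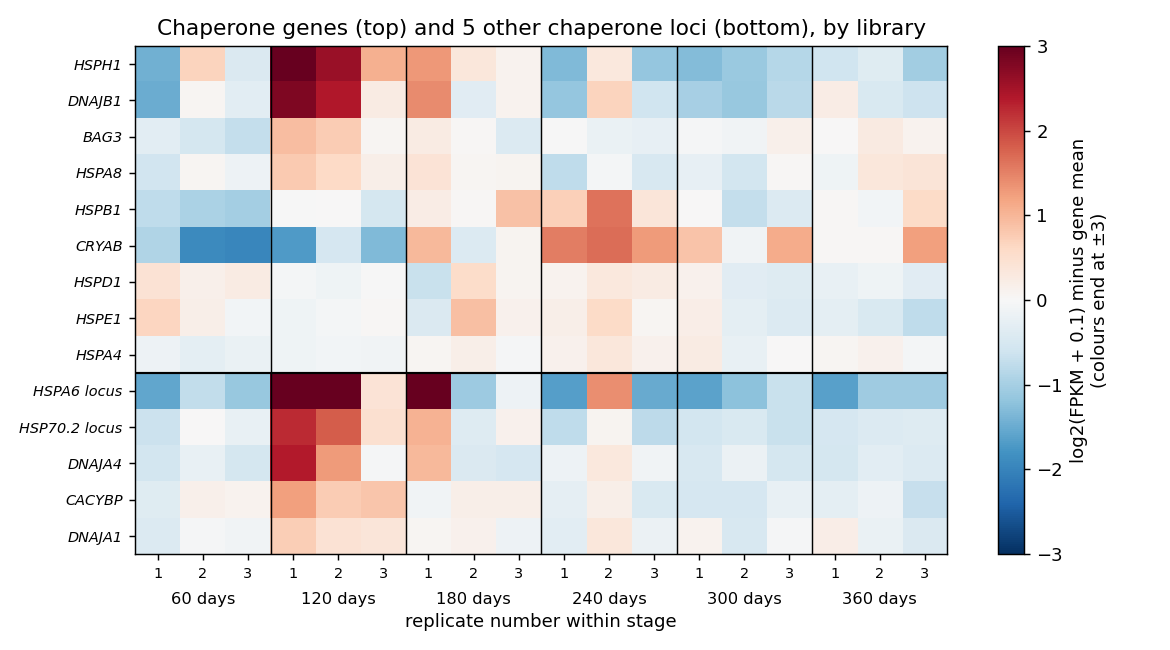
Levels of the 9 chaperone genes (above the line) and 5 other chaperone loci (below it) in the 18 libraries, as log2(FPKM + 0.1) minus the mean of the gene, red for above and blue for below, with colours ending at ±3. Replicates 1 and 2 of 120 days and replicate 1 of 180 days are red for HSPH1, DNAJB1, the HSPA6 locus and the HSP70.2 locus, and CRYAB is red in all 3 libraries of 240 days and in some libraries of 180, 300 and 360 days.

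HSPB1, a small heat shock protein that also binds actin filaments, was read from locus MSTRG.12997 on chromosome 3 (10037946 to 10039704, minus strand), which overlaps a locus of the other strand. It was among the most abundant of the 9 genes per length. Its level was 46.4, 40.3 and 38.6 FPKM at 60 days and 77.5, 79.6 and 54.4 FPKM at 120 days. The libraries of 180 days had 91.1, 81.0 and 145 FPKM, and at 240 days 129, 245 and 102 FPKM. The high value of 180 days lay in replicate 3 and that of 240 days in replicate 2, and neither of these libraries was among the 3 with skeletal muscle transcripts. At 300 days HSPB1 was at 78.8, 47.7 and 58.6 FPKM, below every library of 240 days, and at 360 days at 80.7, 74.6 and 117 FPKM. Stage means were ordered 240, 180, 360, 120, 300 and 60 days, and the ranges of neighbours overlapped except for 300 and 60 days.

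CRYAB, the alpha B-crystallin known from lens and muscle, belongs to the same family and forms mixed complexes with HSPB1. Its locus MSTRG.22200 on chromosome 9 (39638506 to 39643530, minus strand) also overlaps HSPB2, a neighbouring small heat shock gene, in the RefSeq annotation, so the values cannot be given to CRYAB alone. The level was 27.1, 13.4 and 13.1 FPKM at 60 days and 15.6, 36.1 and 20.3 FPKM at 120 days. The libraries of 180 days had 99.6, 38.1 and 53.9 FPKM, and the highest of these was the library with the most skeletal muscle transcripts. At 240 days it was 148, 162 and 124 FPKM, the 3 highest values of the series. The later stages were lower and wider, with 92.3, 47.7 and 110 FPKM at 300 days and 52.6, 52.4 and 119 FPKM at 360 days. The range of 240 days lay above that of 300 days, and the range of 180 days above that of 120 days.

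The 2 small heat shock genes were related over the libraries, with an r of 0.72 on log2(FPKM + 0.1) (rho 0.79, n = 18), 0.62 without the 2 libraries farthest in HSPB1 and 0.44 within stages. Their proportion was not constant. CRYAB per HSPB1 in FPKM had a median of 0.34 at 60 days (0.33 to 0.58 over 3 libraries) and of 1.17 at 300 days (0.999 to 1.88 over 3 libraries). At 240 days the ratio was between 0.66 and 1.22. HSPA4, although nearly flat, had an r of 0.72 with HSPB1 and of 0.73 with CRYAB over the 18 libraries, and of 0.29 and 0.19 within stages.

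HSPD1 and HSPE1 encode the chaperonin of mitochondria and its co-chaperonin, and in mammals the genes lie head to head and share a promoter region. The deposited loci keep that arrangement, with HSPD1 as MSTRG.8640 on the minus strand of chromosome 15 (101321360 to 101373526) and HSPE1 as MSTRG.8642 on the plus strand (101373976 to 101376144), 449 bases apart. The HSPD1 locus overlaps COQ10B on the other strand and a locus of its own strand that carries ANKRD44 and SF3B1. The latter had a mean of 26.3 FPKM, and the HSPD1 locus one of 26.0 FPKM. The value of the HSPD1 locus, and its ratio to HSPE1, therefore cannot be given to HSPD1 alone. HSPD1 was at 34.4, 28.1 and 30.3 FPKM at 60 days and at 24.6, 23.2 and 25.2 FPKM at 120 days. Both its lowest and its highest library were littermates of 180 days, replicate 1 with 15.9 FPKM and replicate 2 with 37.1 FPKM. Replicate 1 of 180 days is also the library with 551 FPKM of skeletal muscle markers and with the lowest sum of adipocyte markers, 596 FPKM. At 360 days HSPD1 was at 21.9, 23.2 and 20.1 FPKM.

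HSPE1 was at 60.5, 43.2 and 36.2 FPKM at 60 days, at 28.3, 71.5 and 41.9 FPKM at 180 days and at 31.1, 28.0 and 22.5 FPKM at 360 days. It repeated the spread of HSPD1 within a litter, with replicate 2 of 180 days as the highest library of both. The r of the pair was 0.87 over 18 libraries (rho 0.87), 0.87 without the 2 farthest in HSPD1 and 0.88 within stages. HSPE1 per HSPD1 in FPKM was between 1.12 and 1.93, with a median of 1.56. Against HSPH1 the correlations were small, with an r of -0.16 for HSPD1 and -0.01 for HSPE1.

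HSPA4 is another HSP110-type exchange factor. Its locus MSTRG.12534 on chromosome 2 (135305749 to 135394185, plus strand) also holds ZCCHC10, so the value belongs to both genes. It was between 2.68 and 2.95 FPKM at 60 days, between 2.99 and 3.12 FPKM at 120 days and between 3.58 and 4.16 FPKM at 240 days. The stages of 240 and 180 days overlapped, as did 180 and 360 days. The lowest library of 240 days (3.578 FPKM) and the highest of 360 days (3.576 FPKM) were nearly equal, and these 2 stages were not compared by a test.

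**Figure D3:**
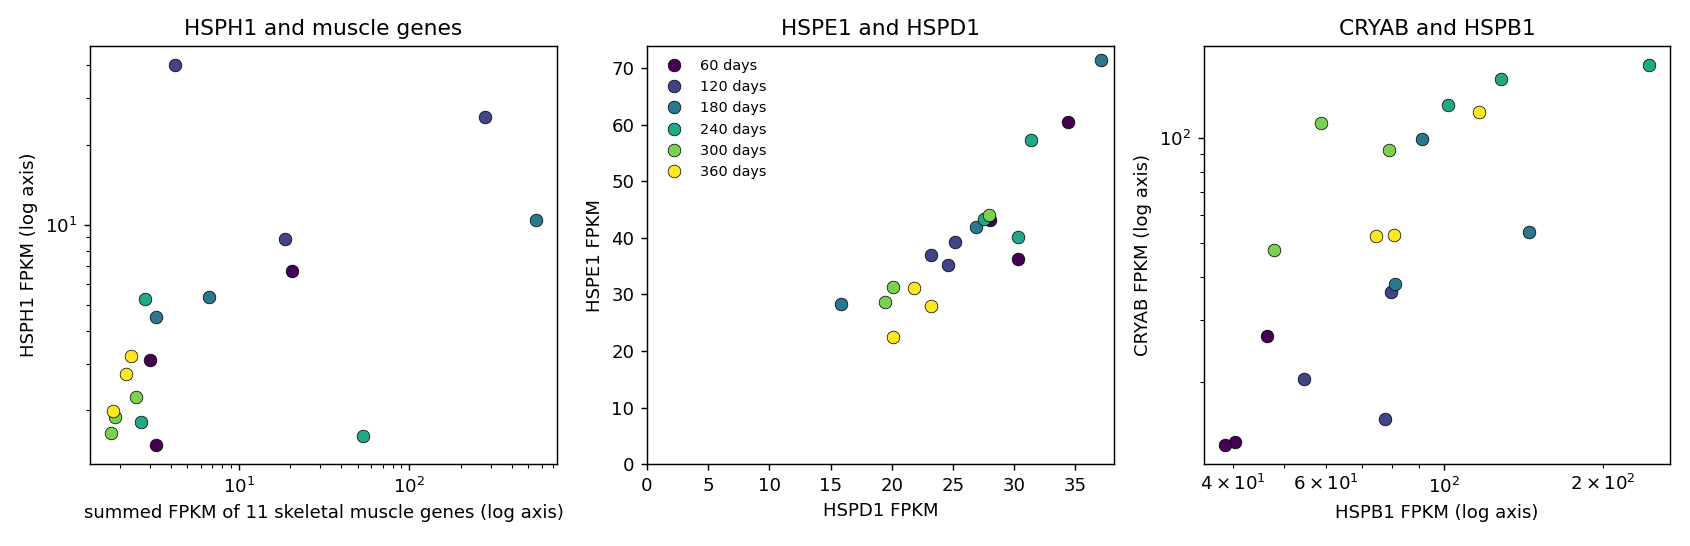
Scatter plots in which each point is 1 of 18 libraries and the colour its age. The left plot sets HSPH1 against the summed FPKM of 11 skeletal muscle genes (both axes log), the middle one HSPE1 against HSPD1 (linear, from 0), and the right one CRYAB against HSPB1 (both axes log). HSPH1 and the summed muscle genes had an r of 0.53 on log2 values, 0.23 without the 2 libraries farthest in muscle genes and 0.21 within stages. The library highest in HSPH1, at 40.1 FPKM, lies at 4.25 FPKM of muscle genes. The HSPE1 and HSPD1 points rise together (r = 0.87 on log2 values).

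The comparison of 120 with 60 days is the one whose values were known when the genes were chosen, so it is given as a description and nothing is read from it. A locus was called when edgeR, fitted across all loci, gave an adjusted p no higher than 0.05 and the log2 fold change was 1 or more in size. BAG3 was the 1 called member of 9, where 0.231% of all tested loci were called. The log2 fold change was 2.80 ± 0.62 (SE, n = 3 against 3) for HSPH1, 2.72 ± 0.65 for DNAJB1 and 1.25 ± 0.20 for BAG3. It was 0.82 ± 0.23 for HSPA8 and 0.84 ± 0.33 for HSPB1. HSPH1 and DNAJB1 thus had the highest fold changes and also the widest errors, and BAG3 a smaller fold change with a narrow error. The remaining values were 0.51 ± 0.46 for CRYAB, 0.20 ± 0.11 for HSPA4, -0.26 ± 0.21 for HSPD1 and -0.24 ± 0.27 for HSPE1. For 6 of 9 members all libraries of 120 days were above all of 60 days, as for 7.95% of all tested loci. The BAG3 call was absent without either replicate 1 or replicate 2 of 120 days and without any 1 of the libraries of 60 days.

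Skeletal muscle transcripts were present in 1 of the 2 libraries that carried the high values of 120 days. Replicate 1 of 120 days had the highest HSPH1, DNAJB1, BAG3 and HSPA8 of all libraries and 4.25 FPKM of summed muscle markers, with ACTA1, the skeletal actin, at 0.446 FPKM. Replicate 2 had 279 FPKM of muscle markers with ACTA1 at 82.8 FPKM. Over the 18 libraries the log2 sum of muscle markers had an r of 0.53 with HSPH1 (rho 0.58) and of 0.50 with DNAJB1 (rho 0.47). Without the 2 libraries farthest in muscle markers the r was 0.23 and 0.04, and within stages 0.21 and 0.22. Without the 3 libraries high in muscle transcripts HSPH1 was at 24.5 FPKM and DNAJB1 at 24.7 FPKM as the mean of the 2 libraries left at 120 days. At 180 days the corresponding means were 4.92 FPKM and 5.56 FPKM, compared with 6.75 and 9.11 FPKM with all 3 libraries. HSPB7 and HSPB8, small heat shock genes of striated muscle named here after their values were seen, were highest in 180 days replicate 1 (4.61 and 5.93 FPKM) and 120 days replicate 2 (1.48 and 1.36 FPKM). Other cell markers also moved with age. The 9 fibroblast and progenitor markers summed to between 4593 and 6335 FPKM at 120 days and to between 914 and 3878 FPKM at the other stages. The 14 matched immediate early genes summed to between 109 and 129 FPKM at 60 days, to between 87.3 and 158 FPKM at 120 days and to between 349 and 460 FPKM at 360 days. Their part in the chaperone levels was not tested.

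The first and the last stage were compared next. This contrast shares the libraries of 60 days with the one known at the choice of the genes. The direction and number of calls among the members are thus partly set by that choice. At 360 days CRYAB and HSPB1 rose, 2 of 9 members, where 5.11% of all tested loci were called. CRYAB was higher by 2.29 ± 0.48 on the log2 scale (edgeR quasi-likelihood test, adjusted p = 0.00878), and HSPB1 by 1.32 ± 0.33 (adjusted p = 0.0195). All 3 libraries of 360 days were above all 3 of 60 days for both. Over all alternatives the adjusted p ranged from 1.06e-05 to 0.0791 for CRYAB and from 0.00105 to 0.27 for HSPB1. The upper ends came from the fit without the 7 libraries low in Y-linked genes, which keeps 1 library of 60 days. There the log2 fold changes were 2.72 for CRYAB and 1.39 for HSPB1. The HSPB1 call was also absent without any 1 library of 60 days or without 360 days replicate 3, when its log2 fold change was 1.03. Replicate 3 was the highest library of 360 days for both genes and the one that stood apart in structural RNAs. CRYAB was still called without it.

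BAG3 differed by 0.84 ± 0.20 (edgeR adjusted p = 0.0157) and HSPA4 by 0.44 ± 0.11 (adjusted p = 0.0225) between 360 and 60 days, both under the minimum fold change. HSPA8 differed by 0.62 ± 0.23 (adjusted p = 0.098). For HSPH1 the value was -0.34 ± 0.58 (adjusted p = 0.747) and for DNAJB1 0.40 ± 0.62 (adjusted p = 0.714), both smaller than their own SE. HSPD1 was at -0.33 ± 0.21 (adjusted p = 0.338) and HSPE1 at -0.60 ± 0.27 (adjusted p = 0.166), and neither was called. All libraries of 360 days were below all of 60 days for each of the pair. The share of all tested loci separated downward in this way was not counted, so nothing is read from it. In the other direction 4 of 9 members had all libraries of 360 days above all of 60 days, and this held for 9.12% of all tested loci. The median log2 fold change of the 9 members was 0.44, and that of all tested loci -0.01. The libraries of 60 days also belong to the contrast known at the choice of the genes. The values of the members are thus partly set by that choice, and nothing is read from their distance to all loci.

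**Figure D4:**
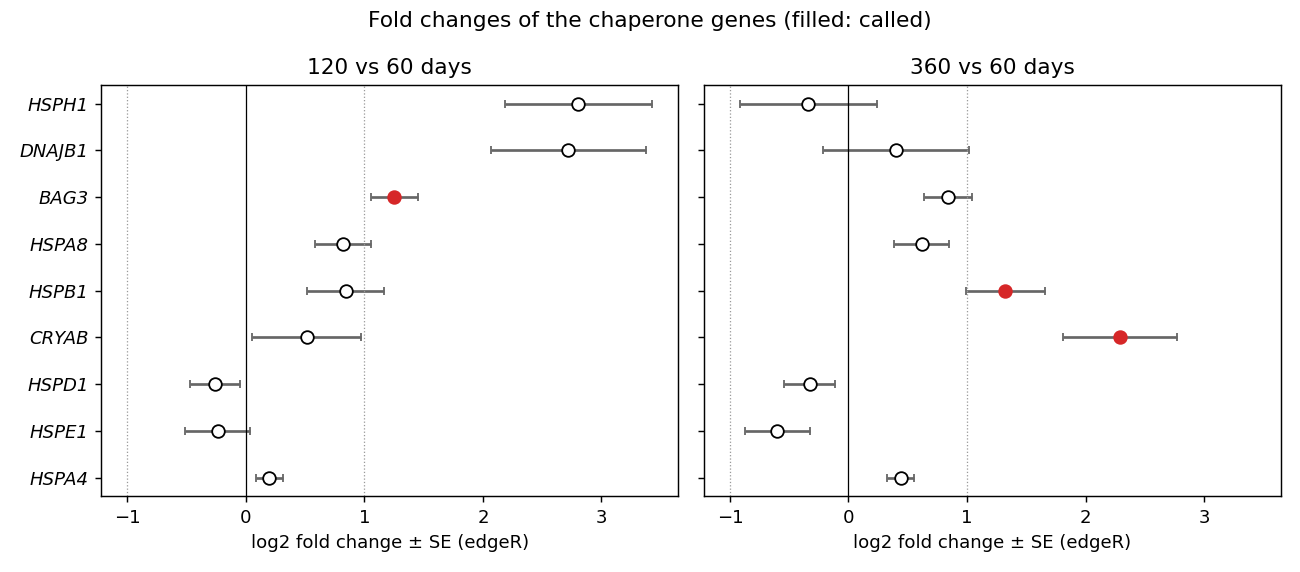
Log2 fold changes with their SE (edgeR, 3 libraries per stage) of the 9 genes, 120 against 60 days on the left and 360 against 60 days on the right. Filled points were called, solid and dotted vertical lines mark 0 and ±1. BAG3 is filled on the left (1.25), HSPB1 (1.32) and CRYAB (2.29) on the right, and HSPH1 and DNAJB1 have the widest bars in both.

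No member was called between the later adjacent stages by edgeR, and no locus of the whole table was either. Over all loci DESeq2 called 254, 109, 19 and 66 of 19395 in these steps in order of age, and edgeR on the libraries of the 2 stages alone called 9, 17, 1 and 0 of 19470. From 120 to 180 days 0% of all tested loci were called, and 12.4% had an unadjusted p under 0.05, which included 4 of 9 members. This step shares the libraries of 120 days with the contrast known at the choice of the genes, so the direction of HSPH1, DNAJB1 and BAG3 is partly set by that choice. The 4 were HSPH1 (log2 fold change -1.87 ± 0.60, edgeR adjusted p = 0.208), DNAJB1 (-1.56 ± 0.63, adjusted p = 0.311), BAG3 (-0.66 ± 0.20, adjusted p = 0.185) and CRYAB (1.42 ± 0.47, adjusted p = 0.218). The first 3 pointed down and CRYAB up. DESeq2 and limma on log2 FPKM also called 0 members there.

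From 180 to 240 days 0% of tested loci were called and 9.33% had an unadjusted p under 0.05, with 2 of 9 members among them. They were CRYAB at 1.21 ± 0.46 (edgeR adjusted p = 0.423) and HSPA8 at -0.55 ± 0.23 (adjusted p = 0.472). DESeq2 and limma called 0 members. From 240 to 300 days 0% were called and 3.78% had an unadjusted p under 0.05, among them HSPB1 as 1 of 9 members, with a log2 fold change of -1.37 ± 0.33. Its adjusted p was 1 by edgeR and 0.0361 by DESeq2, which called it as its 1 member among 19 of 19395 loci, and limma called 0. From 300 to 360 days 0% were called and 9.08% had an unadjusted p under 0.05. HSPA8 was the 1 member of 9 among them, at 0.53 ± 0.23 (edgeR adjusted p = 0.531), and DESeq2 and limma called 0 members.

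A test of any difference among the 6 stages called 5 of 9 members, where 6.57% of all tested loci were called. It contains the contrast known at the choice of the genes. The adjusted p of edgeR was 0.00621 for HSPH1, 0.00821 for CRYAB, 0.0165 for HSPB1, 0.0201 for BAG3 and 0.0257 for DNAJB1. HSPA4 (edgeR adjusted p = 0.0527) and HSPA8 (edgeR adjusted p = 0.0697) were past the threshold by DESeq2, which called 4080 of 19395 loci, and not by edgeR. HSPD1 (adjusted p = 0.513) and HSPE1 (adjusted p = 0.311) were past it by neither. Without the 3 libraries high in skeletal muscle transcripts 3 members were called, CRYAB, HSPB1 and HSPH1. Without the 7 libraries low in Y-linked genes CRYAB alone was called, in a fit that has no library of 180 days. When a single library was left out, the calls came to 3 for replicate 3 of 60 days and for replicates 1 and 2 of 120 days.

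Other chaperone genes were read from lists, 113 genes in all, of which 104 were matched to a locus and 98 passed the filter. From 60 to 120 days 1 of 98 was called higher and 0 lower by edgeR, where 0.231% of all tested loci were called, and 3 were called by DESeq2 and 0 by limma or with a replicate block. Over all loci DESeq2 called 332 of 19395 in that comparison. Of the 98, 55 had a fold change above 0 and their median was 0.04 on the log2 scale. The 1 was CACYBP, a partner of HSP90 and of ubiquitin ligases. It was between 1.26 and 1.82 FPKM at 60 days and at 3.27 ± 0.639 FPKM at 120 days (SD, n = 3), and each library of 120 days was above every other library of the series. Its log2 fold change was 1.10 ± 0.20 (edgeR adjusted p = 0.040, and from 7.15e-05 to 0.682 over the alternatives). In contrast with HSPH1, replicate 3 of 120 days was not the lowest of its stage for CACYBP (2.97 FPKM). Of the 13 tested co-chaperones of HSP90 and HSP70, 11 had a fold change above 0 and the list's median was 0.33 on the log2 scale, against a median of -0.01 over all tested loci. Of 25 J-domain genes 12 were above 0 (median -0.03), of 10 other HSP70 and HSP110 genes 4 (median -0.07) and of 11 TRiC and prefoldin subunits 5 (median -0.01). Heat shock factors and regulators had 6 of 6 above 0 (median 0.17), endoplasmic reticulum chaperones 8 of 12 (0.20) and other small heat shock genes 2 of 3 (0.90). Other BAG and exchange factors had 4 of 8 (-0.03), mitochondrial quality control genes 2 of 7 (-0.05) and other HSP90 genes 1 of 3 (-0.01). Over all tested loci 48.2% were above 0. The lists were chosen with this comparison known, so nothing is read from these shares.

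The stress-inducible HSP70 genes themselves were traced by position. The locus MSTRG.15085 on chromosome 4 (88970612 to 88973597, minus strand) covers RefSeq HSPA6 (88970592 to 88973109), which encodes an HSP70 that in humans is made almost only under stress. The deposited table gives it the Ensembl identifier of a neighbouring gene and no symbol. It was at 0.421, 0.827 and 0.598 FPKM at 60 days, at 50.4, 35.1 and 1.95 FPKM at 120 days and at 20.3, 0.624 and 1.29 FPKM at 180 days. Of the other 9 libraries the highest was 240 days replicate 2 with 3.91 FPKM. The difference between 120 and 60 days was 5.64 ± 1.41 on the log2 scale and was not called by edgeR, while DESeq2 called it. The test of any stage difference called it (edgeR adjusted p = 0.0187).

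Locus MSTRG.19660 on chromosome 7 (23914677 to 23937432, plus strand) contains RefSeq HSP70.2 (23925929 to 23927854), whose synonyms are HSPA1A and HSPA1B, together with other genes, so its level cannot be given to HSP70.2 alone. It stood at 73.0, 54.8 and 21.6 FPKM at 120 days and at 32.1 FPKM in 180 days replicate 1, and at 16.9 FPKM or less in the other 14 libraries. Its any stage difference had an adjusted p of 0.0101 by edgeR. DNAJA4, a J-domain protein, was at 3.96, 1.80 and 0.661 FPKM at 120 days and at 1.43 FPKM in 180 days replicate 1, with 0.883 FPKM as the highest of the other 14. It was called for any stage difference (edgeR adjusted p = 0.0387). HSPH1 was correlated only with picked list loci, each of which had its highest mean at 120 days, as HSPH1 had. The other list genes were not correlated with HSPH1, so a high r is partly set by this choice. Across the 18 libraries log2(FPKM + 0.1) of HSPH1 had an r of 0.91 with the HSPA6 locus, 0.96 with the HSP70.2 locus, 0.85 with DNAJA4 and 0.90 with CACYBP. In the same order rho was 0.86, 0.91, 0.58 and 0.85. Without the 2 libraries farthest in HSPH1 the r was 0.76, 0.89, 0.58 and 0.79, and within stages it was 0.81, 0.85, 0.77 and 0.62.

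HSP90AB1, the constitutive HSP90 of the cytosol, shares its locus with RefSeq SLC29A1, SLC35B2 and LOC110261531, so the level cannot be given to HSP90AB1 alone. That locus was between 22.6 and 33.2 FPKM in all libraries, with a difference of 0.06 ± 0.14 on the log2 scale between 120 and 60 days, and was not called for any stage difference (edgeR adjusted p = 0.557). HSF1, the factor that switches the inducible genes on, shares a locus with RefSeq MROH1, BOP1, DGAT1 and SCX, so the level cannot be given to HSF1 alone. The HSF1 locus was between 2.77 and 4.16 FPKM. Its any stage difference was not called either (adjusted p = 0.171). The library highest in this shared locus was the one highest in HSPH1, 120 days replicate 1. The next highest, 360 days replicate 3, had 4.09 FPKM at the shared locus and 1.99 FPKM of HSPH1.

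From 60 to 360 days 1 of the 98 list genes was called higher and 0 lower, where 5.11% of all tested loci were called. HSPB6, a small heat shock gene and partner of BAG3 that is abundant in muscle and known in fat, was higher by 1.33 ± 0.26 on the log2 scale (edgeR adjusted p = 0.0064, up to 0.127 over the alternatives), and limma on log2(FPKM + 1) did not call it. It was between 3.67 and 5.30 FPKM at 60 days, between 6.14 and 6.42 FPKM at 240 days and between 6.92 and 12.8 FPKM at 360 days. The value of 12.8 FPKM lay in replicate 3 of 360 days. Unlike CRYAB it did not have its highest stage at 240 days. Between the later adjacent stages 0 of 98 list genes were called by edgeR, DESeq2 or limma, and 17, 12, 4 and 11 had an unadjusted p under 0.05 in order of age, beside 12.4%, 9.33%, 3.78% and 9.08% of all tested loci.

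Any stage difference was called for 13 of the 98, where 6.57% of all tested loci were called. They were CACYBP, HSPB6, HSPB11, the HSPA6 locus and HSPA5, the J-domain genes DNAJA4, DNAJB9, DNAJC6, DNAJC19 and DNAJC21, and BAG4, CLPX and XBP1. None of the 11 tested subunits of the TRiC chaperonin and prefoldin, none of the 3 other HSP90 genes and none of the 6 tested heat shock factors and regulators were among them. DESeq2 called 26 of the 98, limma 10 with a pseudocount of 0.1 and 12 with 1, and edgeR with a replicate block 9. The HSPA6 locus, DNAJA4, HSPB6, HSPB11 and DNAJC6 were not among those 9. Over all loci DESeq2 called 4080 of 19395. Of 19470 loci limma called 1127 with a pseudocount of 0.1 and 1333 with 1, and the replicate block 1019.

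As the genes most like the 9 members, the 10 other named loci with the highest r to the mean z-score of the members were taken, out of 11855 with a mean of at least 1 FPKM. The first was AHSA1, the co-chaperone that activates the ATPase of HSP90, with an r of 0.76 (rho 0.82, n = 18 libraries). SRC followed with 0.74, FAM114A1 with 0.74, TTL with 0.73, MED8 with 0.71 and NQO2 with 0.71. DNAJA1, a J-domain partner of HSP70, had 0.70, TSPAN17 0.70, GRAMD2B 0.69 and KLC2 0.68. The score mixes sets that did not vary together, since its r was 0.70 with HSPB1 and 0.65 with DNAJB1 but 0.26 with CRYAB and 0.14 with HSPD1.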

How the data were processed

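RNA of backfat, depleted of ribosomal RNA, was sequenced from 18 pigs. The authors used Cutadapt for trimming, Hisat2 for alignment to Sscrofa11.1 and StringTie to assemble loci. The deposited FPKM values, 1 per locus and library, come from the authors' StringTie run. The counts, deposited by the authors, are whole numbers whose totals differ between libraries. The way reads were assigned to loci is not given in the sources used here, and in some libraries the total exceeds the mapped reads that the authors list, so a read may have been counted more than once. Every library entered the fit, with 0 unused sample columns.

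Of 27883 loci, 19470 reached 0.5 FPKM in 3 or more libraries. Their counts, scaled by TMM, went into 1 quasi-likelihood fit over 6 stages (edgeR, version 4.0.16). The p-values are 2-sided and adjusted by Benjamini-Hochberg over all tested loci, and calls need an adjusted p no higher than 0.05 with a log2 fold change of 1 or more in size (any stage difference: the adjusted p alone). Each SE was obtained by dividing the log2 fold change by the root of its F statistic. The labels give separate pigs as replicates, which are full sibs within a stage, so p-values measure the spread between littermates. Alternatives used DESeq2 (version 1.42.0), limma (version 3.58.1) on log2(FPKM + 0.1) and log2(FPKM + 1), other filters and scaling, a replicate block, the level of Y-linked genes, the 2 stages alone and each library left out. Members and lists were chosen with earlier results of these data known. All members were named, of the lists each called gene with HSPA1A, HSPA1B, HSP90AB1, HSPA5 and HSF1, and the 10 loci most like the members. List genes were matched by symbol, Ensembl identifier or RefSeq position (assembly Sscrofa11.1).

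Equal replicate numbers at different stages were not treated as pairs, because the mean residual correlation was 0.011 over 45 library pairs with the same number and -0.005 over 90 with another.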

Additional observations from a re-analysis of the deposited data

How the results depend on the processing

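For the comparison of 120 with 60 days, where 1 member was called, 0 were called with no filter on low values, with a covariate for Y-linked genes, on the libraries of the 2 stages alone and without the 7 libraries low in Y-linked genes, and 3 with DESeq2. For 360 against 60 days, with 2 called, 1 was called with the Y-linked covariate, 0 without those 7 libraries and 4 by the adjusted p alone. For any stage difference, with 5 called, 3 were called without the 3 libraries high in muscle transcripts and 1 without the 7. DESeq2 called 1 member between 240 and 300 days in place of 0. With single libraries left out there were 0 to 2 members for 120 against 60 days, 1 to 2 for 360 against 60 days and 3 to 6 for any stage difference, and 0 in the other comparisons. The replicate block gave 1, 2 and 4 members in these 3 comparisons and 0 in the others. The numbers do not pair the pigs, and for 7 of 18 libraries the closest other library carried the same number. Log2 fold changes of members were recomputed for 22 values, those with an unadjusted edgeR p under 0.05 or from 360 against 60 days. Of the 632 recomputed values 2 reversed, both among values that were not called. Other values, some of them near 0, were left out, so the low number of reversals is partly set by that choice. HSPH1 at 360 against 60 days was 0.37 without 60 days replicate 2 and between -0.72 and 0.37 over all single omissions, and DNAJB1 was -0.10 without the 7 libraries. The exclusions of 3 and of 7 libraries were chosen after seeing the data, and a lone library of 60 days is assumed to vary like the other stages. Summing rows of a member could not be tried because each has 1 row. The cause of these changes was not tested.

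Over all loci the counts moved more. For 120 against 60 days 45 loci were called by edgeR, 332 by DESeq2, 142 on the 2 stages alone, 5 with the block, and 1 both with no filter and with the Y-linked covariate. For any stage difference 1280 were called, 4080 by DESeq2 and 572 with the covariate. For 360 against 60 days 995 were called (597 higher, 398 lower), and limma on log2(FPKM + 0.1) called 361 higher and 781 lower, on a scale whose median over all loci was -0.19. Every member had at least 1804 counts in each library, and 3 pigs a stage limit the precision.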

Other observations

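HSPA5, the HSP70 of the endoplasmic reticulum, was lower at the middle stages, at a locus that also overlaps RefSeq RABEPK. It was between 31.2 and 41.4 FPKM at 60 and 120 days, between 20.5 and 24.9 FPKM in the 9 libraries of 180, 240 and 300 days, and between 28.2 and 40.7 FPKM at 360 days (edgeR adjusted p = 0.00855 for any stage difference). CALR and HSP90B1, chaperones of the same compartment named after their values were seen, also had their 3 highest means at 60, 360 and 120 days, with 66.3, 61.4 and 61.0 FPKM for CALR and 46.7, 41.1 and 41.0 FPKM for HSP90B1. Neither was called for any stage difference (edgeR adjusted p = 0.0969 for CALR and 0.547 for HSP90B1). Of the 12 genes listed as endoplasmic reticulum chaperones 1 was called, where 6.57% of all tested loci were called. XBP1, a transcription factor of the same stress pathway, was between 11.9 and 13.2 FPKM at 120 days and between 15.4 and 19.7 FPKM at 360 days (edgeR adjusted p = 0.0461 for any stage difference). CLPX, which feeds the protease of the mitochondrial matrix, was between 22.7 and 31.7 FPKM at 60 days and between 12.4 and 14.2 FPKM at 360 days, a log2 difference of -0.83 ± 0.12 (edgeR adjusted p = 0.00126) that was under the minimum fold change.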
